A study of Mus musculus with 6 samples.

Results

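The genes described here are 10 mouse genes that report on Wnt signalling or mark stem cells of the stomach: Lgr4, Lgr5, Axin2, Rnf43, Znrf3, Tnfrsf19, Ascl2, Nkd1, Tcf7 and Lef1. They were taken as a named list, by symbol, from tables of 25528 genes. The rule used no measured value, but the list was drawn up with earlier results of these data known. RNA sequencing had been done on organoids of the gastric corpus, the body of the mouse stomach where acid is made. Such organoids are small balls of epithelium, usually grown in a gel. Organoids of the Erbb2 Overexpression genotype, which carried extra Erbb2, formed 3 libraries, and Control organoids transduced with a vector without insert formed the other 3, and both groups shared the replicate numbers 1 to 3. The promoter driving Erbb2, the strain and age of the donor mice, the culture medium and whether a line was a clone or a pool were not stated in the labels. Of the 10 genes, 9 had enough counts to be tested among the 12593 genes tested in all, and Lef1 did not.

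Wnt proteins bind Frizzled and LRP receptors at the cell surface. The bound receptors block the complex that destroys beta-catenin, and beta-catenin then enters the nucleus and activates genes with transcription factors of the TCF/LEF family. Many of the genes switched on in this way act back on the pathway. Axin2 and Nkd1 dampen it inside the cell. Rnf43 and Znrf3 are ubiquitin ligases that remove Frizzled receptors from the surface, and R-spondins bound to Lgr4 or Lgr5 hold these ligases back. In the stomach, Lgr5 marks stem cells at the gland base of the antrum and a subset of chief cells in the corpus. Axin2 and Tnfrsf19, also called Troy, have likewise been used to mark stem or reserve cells of gastric glands. R-spondin and Wnt are usual components of gastric organoid media.

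The promoters of these genes differ in base composition and in the short words that TCF/LEF factors are known to bind. The bases just before an annotated start were taken from RefSeq on the assembly GRCm38.p6, 250 for each start, which gave 14 windows for 8 of the 10 genes. Lgr5 and Znrf3 had no entry. The words searched were the letters CTTTG followed by AA, by AT, by TA or by TT, on both strands, so that the 4 words share their first 5 letters. A word was found in 2 of the 14 windows, and 14.8% of all 32851 windows of that length in the table held one. The levels of Axin2, Ascl2, Tnfrsf19, Rnf43 and Tcf7 varied together across the libraries. The windows of Rnf43 and Tcf7 held no word and are not shown. Windows are shown for Axin2, Ascl2 and Tnfrsf19, and for Lgr4, whose level varied least. They run 5′ to 3′ on the strand of the gene, and capitals mark a TCF/LEF word.
Axin2: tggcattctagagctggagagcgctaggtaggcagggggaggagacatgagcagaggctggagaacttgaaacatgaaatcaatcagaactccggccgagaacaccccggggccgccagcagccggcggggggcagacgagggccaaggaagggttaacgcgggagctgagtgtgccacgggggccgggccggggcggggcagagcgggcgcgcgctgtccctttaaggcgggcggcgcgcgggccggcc
Ascl2: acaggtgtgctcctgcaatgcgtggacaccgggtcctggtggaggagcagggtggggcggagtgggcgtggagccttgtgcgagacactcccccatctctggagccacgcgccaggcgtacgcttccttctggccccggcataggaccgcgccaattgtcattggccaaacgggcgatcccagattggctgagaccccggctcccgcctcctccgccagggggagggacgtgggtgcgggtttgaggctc
Tnfrsf19: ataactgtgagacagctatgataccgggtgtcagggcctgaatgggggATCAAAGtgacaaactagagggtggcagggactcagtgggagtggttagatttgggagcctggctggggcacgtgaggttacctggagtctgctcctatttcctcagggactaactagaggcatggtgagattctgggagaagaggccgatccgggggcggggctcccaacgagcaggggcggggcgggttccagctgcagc
Lgr4: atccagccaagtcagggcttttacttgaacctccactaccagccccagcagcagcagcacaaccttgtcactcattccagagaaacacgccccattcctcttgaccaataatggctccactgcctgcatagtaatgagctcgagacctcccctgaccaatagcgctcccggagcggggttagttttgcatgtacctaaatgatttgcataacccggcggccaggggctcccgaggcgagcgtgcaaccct
The Axin2 window lies at chr11:108920099-108920348 on the plus strand and is 69.2% G and C. The Ascl2 window, chr7:142969265-142969514 on the minus strand, is 67.6% G and C. The Tnfrsf19 window shown is the one of its 2 that holds a word. It lies at chr14:61037988-61038237 on the minus strand, is 59.2% G and C and overlaps exons of the predicted gene Gm41168, and its word ATCAAAG begins 202 bases before the start. The Lgr4 window, chr2:109917397-109917646 on the plus strand, is 55.6% G and C. The other match, TACAAAG, stood 147 bases before 1 of 4 annotated starts of Lef1. A match is a description of the sequence and shows no binding, and the windows without one say only that these letters are not in those bases.

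Erbb2 itself was higher in each Erbb2 library than in any control library. It stood at 125, 164 and 128 CPM (counts per 1000000 counts, after scaling between libraries) in control replicates 1, 2 and 3 and at 342, 349 and 285 CPM in the Erbb2 replicates. Total counts lay between 18735853 and 22767455 per library. The first principal component held 57.8% of the variance and had both libraries of replicate 3 at one end and control replicate 2 at the other, with the Erbb2 library of each pair nearer the replicate 3 end. The deviations of same-numbered libraries from their group means ran together, so that each comparison was fitted without and with the replicate number as a block. Without the block the quasi-likelihood test of edgeR called 0 of 12593 genes (0%), where 419 had an unadjusted p below 0.05, while DESeq2 called 34 and limma voom 0. Erbb2 was not called without the block (log2 fold change 1.23, SE 0.15, adjusted p = 0.640) and was called with it (1.23, SE 0.09, adjusted p = 3.55e-05). With the block 389 genes were called, or 3.09%, of which 298 were higher and 91 lower in the Erbb2 group. Nothing in the labels ties the libraries of a group to separate cultures or animals. The p-values measure the spread among these libraries alone, and that spread may be technical. These are bulk libraries, in which fewer cells of a type and less RNA per cell cannot be told apart.

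No gene of the 9 tested was called between the Erbb2 and the control organoids. The count was 0 without the block, against 0% of all genes, and 0 with the block, against 3.09% of all genes. DESeq2 and limma voom also called 0 of the 9, and unadjusted p by edgeR without the block lay between 0.187 and 0.850. Adjusted p was 0.9997 for each of them without the block and lay between 0.195 and 0.992 with it. The groups overlapped in all 9 genes. Of all genes tested 8.75% had groups that did not overlap in either direction, a share too small to set these 9 apart. The median log2 fold change of the 9 was -0.16 without the block and -0.07 with it, beside -0.01 over all genes in either fit, with 2 genes above 0 and 7 below. That median rested on single libraries: without the block it was 0.38 when control replicate 3 was left out and -0.46 when Erbb2 replicate 3 was, and with the block it was 0.04 without pair 3. The libraries differed by replicate number instead. In 6 of the 9 genes replicate 3 was the highest and replicate 2 the lowest library of both groups, an arrangement that 12.5% of all genes tested showed. This arrangement was picked after the values had been seen, so nothing is read from the excess over that share.

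**Figure D1:**
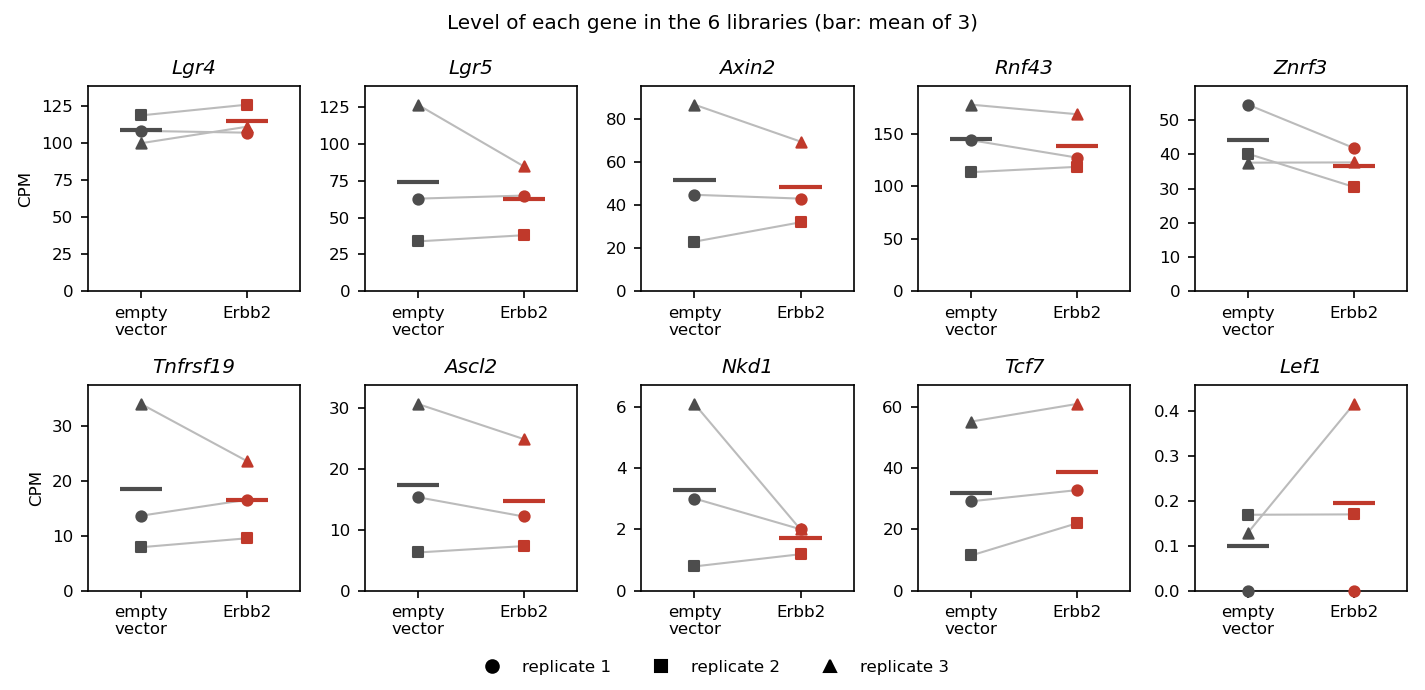
Level in CPM (y axis, from 0) of each of the 10 genes in the control libraries with the empty vector (grey) and the Erbb2 libraries (red). Symbols mark the replicate number, grey lines join libraries of the same number and bars are means of 3. The groups overlap in every panel, and the triangles of replicate 3 are the highest in both groups for Lgr5, Axin2, Rnf43, Tnfrsf19, Ascl2 and Tcf7.

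Among the receptors, Lgr4 (ENSMUSG00000050199), a broadly expressed receptor for R-spondins, was the steadiest gene of the 10. It stood at 108, 118 and 99.6 CPM in control replicates 1, 2 and 3 and at 107, 126 and 111 CPM in the Erbb2 replicates. All 6 libraries thus lay close together, with the highest 1.19 times the lowest in the control group and 1.18 times in the Erbb2 group. Group means were 109 ± 9.38 and 114 ± 9.93 CPM (SD, n = 3), and the log2 fold change was 0.07 (SE 0.11), with a 95% interval of -0.20 to 0.34.

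Lgr5 (ENSMUSG00000020140), the stem cell receptor for R-spondins, varied far more between libraries than between groups. Its level was 63.0, 33.9 and 127 CPM in control replicates 1, 2 and 3 and 65.1, 38.1 and 84.9 CPM in the Erbb2 replicates. Replicate 3 was high and replicate 2 low in both groups, and every Erbb2 library lay inside the range of the controls. Group means were 74.6 ± 47.6 CPM in the controls and 62.7 ± 23.5 CPM in the Erbb2 group (SD, n = 3). The log2 fold change was -0.25 (SE 0.49) with an interval of -1.42 to 0.92, which the block narrowed to -0.46 to 0.17 around -0.15. The difference rested on replicate 3: on log2 values of CPM plus 0.5 the pairs differed by 0.05, 0.17 and -0.58 for replicates 1, 2 and 3, and the value was 0.38 without control replicate 3.

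Tnfrsf19 (ENSMUSG00000060548), a receptor of the tumour necrosis factor family, was arranged like Lgr5 at a lower level. Control replicates 1, 2 and 3 had 13.6, 7.89 and 34.0 CPM and the Erbb2 replicates 16.5, 9.51 and 23.6 CPM. The control libraries spanned the whole Erbb2 group, with means of 18.5 ± 13.7 and 16.5 ± 7.03 CPM (SD, n = 3). Its log2 fold change was -0.16 (SE 0.56; interval -1.49 to 1.16). Pairs 1 and 2 differed by 0.27 and 0.26 and pair 3 by -0.52, so that its sign also turned with replicate 3.

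The ubiquitin ligase genes lay closer together. Rnf43 (ENSMUSG00000034177) stood at 144, 114 and 178 CPM in control replicates 1, 2 and 3 and at 127, 119 and 169 CPM in the Erbb2 replicates. Replicate 3 was again the highest and replicate 2 the lowest in each group, but over a narrow range of 1.57 times in the controls and 1.42 times in the Erbb2 group. Its means were 145 ± 32.2 and 138 ± 26.8 CPM (SD, n = 3), and its log2 fold change was -0.07 (SE 0.20; interval -0.55 to 0.41).

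Znrf3 (ENSMUSG00000041961), the paralog of Rnf43 with the same action on Frizzled receptors, did not follow that arrangement. It stood at 54.5, 40.2 and 37.6 CPM in control replicates 1, 2 and 3 and at 41.8, 30.5 and 37.6 CPM in the Erbb2 replicates. Replicate 1 was the highest library of each group, and replicate 3 was the same in both. Means were 44.1 ± 9.12 CPM in the controls and 36.6 ± 5.75 CPM in the Erbb2 group (SD, n = 3). Between the groups the log2 fold change was -0.27 (SE 0.19; interval -0.71 to 0.17) without the block and -0.26 (SE 0.11, adjusted p = 0.245 by edgeR) with it. The block fit without pair 3 gave -0.38 and passed the threshold (edgeR, adjusted p = 0.0159), in a setting that called 8.71% of all genes.

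Axin2 (ENSMUSG00000000142), a scaffold of the complex that degrades beta-catenin and a widely used readout of Wnt signalling, had similar means in both groups. Control replicates 1, 2 and 3 had 44.9, 23.1 and 86.9 CPM and the Erbb2 replicates 43.1, 32.1 and 69.7 CPM. The controls gave both the highest and the lowest library, and replicate 3 was high and replicate 2 low in each group. Means were 51.6 ± 32.4 and 48.3 ± 19.3 CPM (SD, n = 3). The log2 fold change was -0.10 (SE 0.49) with an interval of -1.26 to 1.07 without the block. With the block it was -0.01 (SE 0.13) with an interval of -0.30 to 0.29, which leaves room for a rise or fall of that size. In the annotation GENCODE M21, exons of Axin2 overlap those of the antisense gene Gm11670 by 209 bases. The labels do not give the strand setting of the counting, so it is not known how reads were assigned there.

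Nkd1 (ENSMUSG00000031661), which acts on Dishevelled to restrain Wnt signalling, was weakly expressed and uneven. Its counts were 65, 14 and 142 in control replicates 1, 2 and 3 and 46, 21 and 48 in the Erbb2 replicates, or 0.789 to 6.11 CPM against 1.19 to 2.01 CPM. The 3 Erbb2 libraries lay close together within the wide range of the controls. Means were 3.30 ± 2.67 and 1.73 ± 0.470 CPM (SD, n = 3). Its log2 fold change of -0.94 (SE 0.65; interval -2.47 to 0.58) was the largest of the 9, and with the block it was -0.94 (SE 0.35, adjusted p = 0.195 by edgeR). Control replicate 3 carried most of it, since the value was -0.15 without that library, and the pairs differed by -0.49, 0.39 and -1.40.

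Among the transcription factors, Ascl2 (ENSMUSG00000009248), a Wnt target known as a regulator of Lgr5-positive stem cells in the intestine, stood at 15.3, 6.25 and 30.7 CPM in control replicates 1, 2 and 3. In the Erbb2 replicates it stood at 12.2, 7.30 and 24.9 CPM. Each Erbb2 library lay between the lowest and the highest control, with replicate 3 high and replicate 2 low in both groups. Means were 17.4 ± 12.3 and 14.8 ± 9.08 CPM (SD, n = 3), with a log2 fold change of -0.24 (SE 0.63; interval -1.73 to 1.26).

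Tcf7 (ENSMUSG00000000782), which encodes the TCF/LEF factor TCF1 and is itself a Wnt target, was the only gene of the 9 that differed in the same direction in all 3 pairs. It stood at 29.1, 11.4 and 55.1 CPM in control replicates 1, 2 and 3 and at 32.8, 22.0 and 60.9 CPM in the Erbb2 replicates. The Erbb2 library was the higher one of each pair, by 0.17, 0.91 and 0.14 on the log2 scale of CPM plus 0.5, yet the groups overlapped widely. Means were 31.9 ± 22.0 CPM in the controls and 38.5 ± 20.1 CPM in the Erbb2 group (SD, n = 3). The log2 fold change was 0.27 (SE 0.58; interval -1.12 to 1.66) without the block and 0.35 (SE 0.14, adjusted p = 0.240 by edgeR) with it. Without pair 3 the block fit gave 0.50 and passed the threshold (edgeR, adjusted p = 0.0168).

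Lef1 (ENSMUSG00000027985), the other TCF/LEF factor of the list, had almost no reads. There were 0, 3 and 3 counts in control replicates 1, 2 and 3 and 0, 3 and 10 counts in the Erbb2 replicates. The filter on low counts left it out of the test, and it was not called with no filter. A count of 0 allows a level of up to 0.139 CPM in control replicate 1 and 0.131 CPM in Erbb2 replicate 1, counting error only (3 counts of the scaled total). Exons of Lef1 also overlap those of the antisense gene Gm43352, by 1208 bases.

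**Figure D2:**
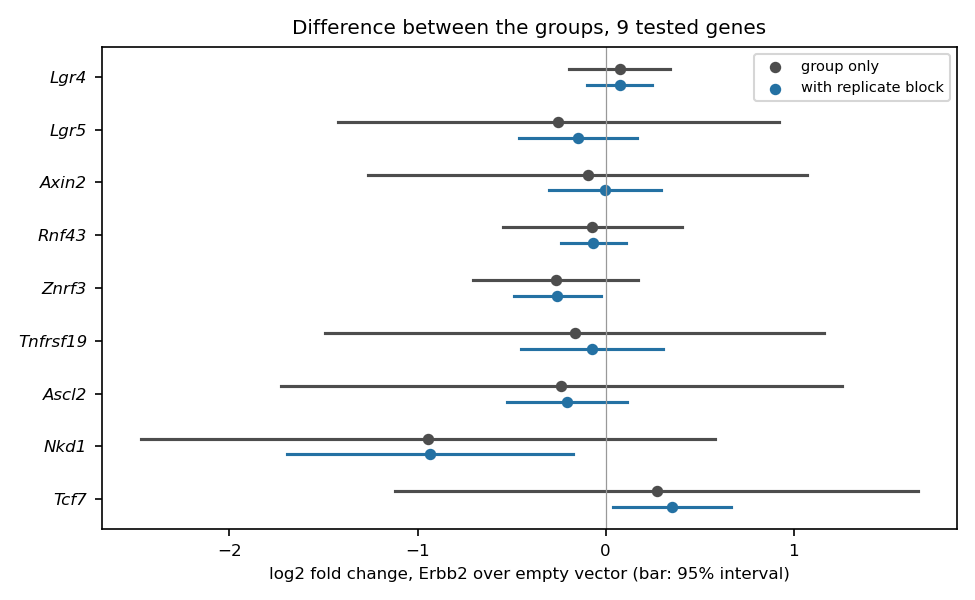
Log2 fold change of the Erbb2 over the control group (x axis) for each of the 9 tested genes, with 95% intervals, in the edgeR fit on the group alone (grey) and with the replicate number as a block (blue). All grey intervals include 0; with the block those of Znrf3, Nkd1 and Tcf7 do not, but none passed adjustment over 12593 genes.

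With the block, 3 of the intervals thus excluded 0 before adjustment: unadjusted p was 0.0318 for Znrf3, 0.0199 for Nkd1 and 0.0306 for Tcf7 in edgeR, and 2122 of all genes tested lay under 0.05 in the same fit. Znrf3 and Nkd1 were lower in the Erbb2 group and Tcf7 was higher. None of these was called after adjustment. The narrowest intervals with the block were those of Lgr4, from -0.10 to 0.25, and of Rnf43, from -0.24 to 0.11.

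The genes were ordered by level per length, as CPM per kilobase of exon averaged over the 6 libraries. The length counted each exon base of any annotated transcript once. Levels of genes with long alternative exons may therefore be understated, and comparisons between genes are approximate. Rnf43 had the highest level, 21.6 CPM per kilobase, followed by Lgr4 at 18.9 and Tcf7 at 13.4. Rnf43 lay above Lgr4 in 4 of 6 libraries and Lgr4 above Tcf7 in 4 of 6, so that these neighbours did not keep their order in every library. Ascl2 at 9.92 and Axin2 at 9.07 CPM per kilobase could not be ordered either, with Ascl2 higher in 3 of 6 libraries. Axin2 lay above Lgr5, at 6.69, in 6 of 6. Lgr5 and Znrf3, at 5.11, changed places in 3 of 6, and Znrf3 lay above Tnfrsf19, at 3.70, in 4 of 6. Nkd1 at 0.552 and Lef1 at 0.0168 CPM per kilobase were the lowest in every library.

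**Figure D3:**
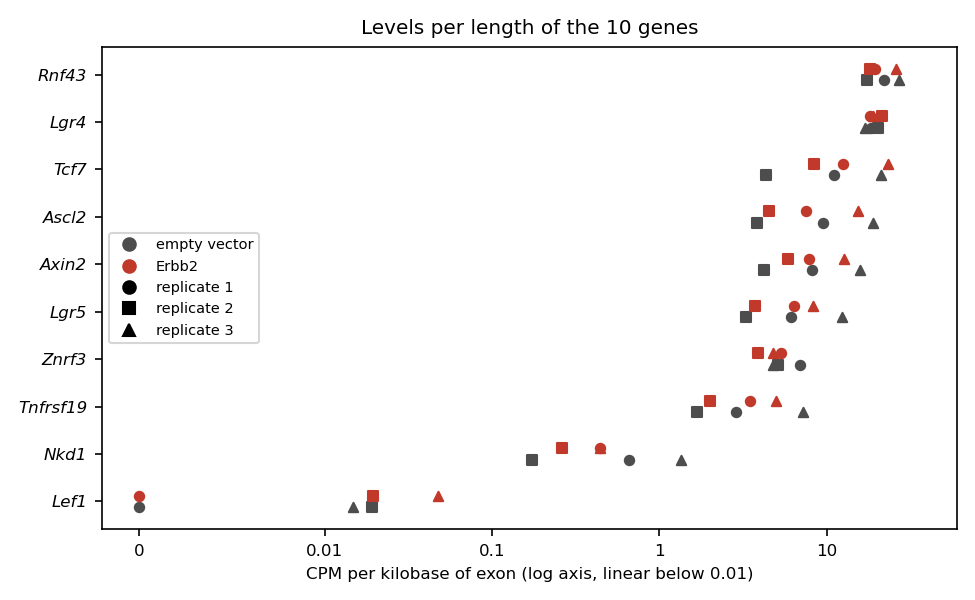
Level per length, in CPM per kilobase of exon (x axis, logarithmic above 0.01 and linear below it), of the 10 genes in each library, with colour for the group and symbol for the replicate number. Rnf43 and Lgr4 lie on top with means of 21.6 and 18.9, and Nkd1 and Lef1 stand apart at the bottom with 0.552 and 0.0168.

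Paralogs could be compared on the same scale. Lgr4 was above Lgr5 in 6 of 6 libraries, by a ratio per length of 2.99, 6.09 and 1.37 in control replicates 1, 2 and 3 and of 2.86, 5.75 and 2.28 in the Erbb2 replicates. The ratio was smallest in replicate 3 and largest in replicate 2 of both groups, where Lgr5 was high and low in turn. The order depends on the lengths in control replicate 3, where Lgr5 had 127 and Lgr4 99.6 CPM before division by length. Rnf43 exceeded Znrf3 in all 6 libraries, by 3.18 to 5.71 times. Of the TCF/LEF genes, Tcf7 and Tcf7l2, which encodes TCF4, had similar levels of 13.4 and 10.1 CPM per kilobase, with Tcf7 the higher one in 3 of 6 libraries. Tcf7l1 was lower than Tcf7l2 in each library, at 2.46 CPM per kilobase on average.

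The differences between replicate numbers were tested in the fit that held both the group and the number, a test that was chosen after the values had been seen. In that test 8 of the 9 genes differed between numbers, against 29.0% of all genes tested. Adjusted p by edgeR was 2.7e-05 for Ascl2, 8.71e-05 for Tcf7, 0.000279 for Axin2, 0.000347 for Tnfrsf19, 0.000601 for Lgr5 and 0.00243 for Rnf43, the 6 genes with replicate 3 highest and replicate 2 lowest. It was 0.0231 for Nkd1 and 0.0407 for Znrf3, and Lgr4 did not pass (edgeR, adjusted p = 0.193). With pair 2 left out 5 of the 9 genes passed, and 1850 of all genes passed in place of 3647.

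**Figure D4:**
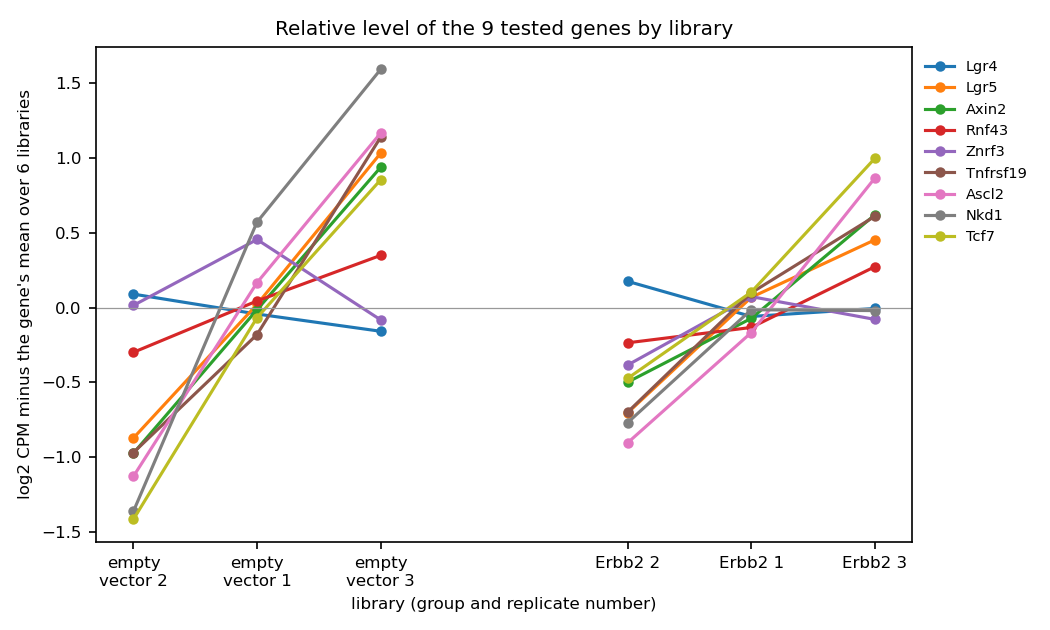
Level of the 9 tested genes relative to each gene's own mean, in log2 CPM (y axis), in the libraries of each group (x axis, placed in the order replicate 2, 1, 3 after their values had been seen; lines only join the points of a gene). Lgr5, Axin2, Rnf43, Tnfrsf19, Ascl2 and Tcf7 are lowest in replicate 2 and highest in replicate 3 of both groups, and each spans a wider range from replicate 2 to 3 on the control side.

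The spread between the libraries of a group was smaller in the Erbb2 group for all 9 genes, against 62.5% of the 12520 genes with a count in every library. The highest library was 3.74 times the lowest in the controls and 2.23 times in the Erbb2 group for Lgr5. The corresponding values were 3.76 and 2.17 for Axin2, 4.31 and 2.48 for Tnfrsf19, and 4.91 and 3.41 for Ascl2. They were 4.82 and 2.77 for Tcf7 and 7.75 and 1.69 for Nkd1. Over all genes tested the median of this ratio was 1.37 in the controls and 1.30 in the Erbb2 group. Each ratio rests on 3 libraries, and the ratios were not tested. Control replicate 3 weighed on the group difference as well: without it the log2 fold change without the block turned positive for Lgr5 (0.38), Axin2 (0.51), Rnf43 (0.11), Tnfrsf19 (0.63) and Ascl2 (0.46). For the same genes it was also above 0 without Erbb2 replicate 2, between 0.005 and 0.12. Tcf7 turned negative without control replicate 2 (-0.13) or Erbb2 replicate 3 (-0.22). None of these values was called.

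Other properties of the libraries moved with the replicate number as well. The share of counts on mitochondrial genes was 10.6% and 11.1% in the replicate 2 libraries and 6.34% to 8.14% in the others, and replicate 2 had the fewest counts in both groups. Among the cell type markers, the summed level of 5 mucous neck cell markers was 2477 CPM in control replicate 3 and 2973 CPM in Erbb2 replicate 3, and 887 to 1520 CPM in the other 4 libraries. Gkn3 and Aqp5 made up most of it, and Tff2, the classic marker of these cells, was instead highest in replicate 2, at 92.5 and 175 CPM beside 39.2 and 59.2 CPM in replicate 3. Parietal cell markers summed to 282 and 319 CPM in replicate 3 and to 123 to 184 CPM in the others, through Kcnj15, Slc26a9 and Aqp4. The proton pump genes did not follow: Atp4b was at 0 in all libraries and Atp4a at 2.87 to 5.41 CPM, with Erbb2 replicate 3 the lowest. Chief cell markers were also highest in replicate 3 of each group, at 127 and 103 CPM beside 55.0 to 104 CPM in the others. Of these, Gif stood at 38.2 and 32.1 CPM in replicate 3 and at 0.793 to 3.62 CPM in the others. Pgc, by contrast, was highest in control replicate 2, at 97.3 CPM. The immune sum, mostly Cd68, was 54.1 and 73.9 CPM in replicate 3 and 18.5 to 36.0 CPM in the others. The part of these properties in the differences between replicate numbers was not tested.

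Several marker sums also differed between the groups. The mucous neck sum was higher in the Erbb2 library of every pair, at 1040, 887 and 2477 CPM in control replicates 1, 2 and 3 and 1520, 1400 and 2973 CPM in the Erbb2 replicates. With the block, Tff2 (adjusted p = 0.00167), Agr2 (0.0181) and Cftr (0.0331) of that list rose in edgeR. Aqp5 and Gkn3, which made up most of the sum, were not called (edgeR with the block, adjusted p = 0.332 and 0.585). Gkn3 was lower in the Erbb2 library of pair 3, at 1093 against 1207 CPM. The parietal sum was likewise higher in each pair, through Aqp4 and Slc26a9. Their group means were 7.43 and 78.1 CPM for Aqp4 and 31.5 and 59.7 CPM for Slc26a9. Neither was called with the block (edgeR, adjusted p = 0.174 and 0.393). The only parietal marker called, Kcnj15, fell (edgeR with the block, adjusted p = 0.00379), and Atp4a had group means of 4.13 and 4.31 CPM. The 5 pit cell markers summed to 106 to 143 CPM in the controls and 207 to 352 CPM in the Erbb2 group, nearly all of it from Tff1 and Psca. With the block Psca was called and Tff1 was not (edgeR, adjusted p = 0.00557 and 0.324). The other pit markers were low in every library, with Muc5ac at most 3.17 CPM, Gkn1 at most 4.83 CPM and Gkn2 at most 2.38 CPM. The 7 squamous markers summed to 399 to 558 CPM and 649 to 919 CPM, a difference carried by Sprr1a, with group means of 260 and 528 CPM, and Ivl. Both Sprr1a and Ivl were called with the block (edgeR, adjusted p = 3.55e-05 and 0.0189). Of the defining squamous genes, Krt5, Trp63 and Krt14 were at most 0.375 CPM in any library, and Krt4 was not called with the block (edgeR, adjusted p = 0.213). The part of these lists in the values of the Wnt target genes was not tested.

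Epithelial markers summed to between 6552 and 7569 CPM in all libraries. Fibroblast markers reached at most 1.93 CPM, with Col1a2, Dcn and Lum at 0. Chief cell markers, with Chia1 at 0, summed to 55.0 to 127 CPM, tuft cell markers to 101 to 136 CPM, and enteroendocrine markers, with Gast at 0, to at most 4.02 CPM. Immune markers summed to 18.5 to 73.9 CPM, almost all of it Cd68, while Ptprc, the general leukocyte marker, reached at most 1.97 CPM. Endothelial markers summed to 2.32 to 14.3 CPM, of which Pecam1 and Cdh5 held at most 0.169 CPM, and the highest value included 8.95 CPM of Tek in Erbb2 replicate 3.

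The rest of the pathway was read from 121 further genes in 9 lists, of which 86 were tested. Without the block 0 of the 86 were called, by edgeR, DESeq2 or limma voom, with 2 at an unadjusted p under 0.05 in edgeR (Fzd4 and Lbh). With the block 4 rose and 3 fell, which is 8.14% of the 86 beside 3.09% of all genes. Since the lists were chosen with earlier results of these data known, nothing is read from that excess. The median log2 fold change of the 86 was 0.03 with the block. Replicate 3 was the highest and replicate 2 the lowest library of both groups in 27 of the 86, beside 12.5% of all genes tested, and 44 of the 86 differed between replicate numbers, beside 29.0%. As that arrangement and the lists were picked with values known, nothing is read from these shares either.

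Of 19 Wnt ligands 7 were tested and none was called. Wnt4 and Wnt5a had the highest levels, 12.3 and 5.46 CPM per kilobase. Wnt4 was arranged differently from the genes above, with 64.6, 75.9 and 15.7 CPM in control replicates 1, 2 and 3 and 66.1, 76.3 and 10.9 CPM in the Erbb2 replicates. Replicate 3 was thus its lowest library in both groups, and the same held for Wnt5a, at 21.4 and 19.5 CPM in replicate 3 and 48.8 to 64.8 CPM in the others. The Wnt secretion genes Porcn and Wls, at 30.3 and 25.2 CPM per kilobase, were not called. The 4 R-spondin genes, whose products are the ligands of Lgr4 and Lgr5, were too low to test, with at most 0.167 CPM in any library.

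Of 17 receptor genes 14 were tested and 1 rose with the block (7.14%, beside 3.09% of all genes tested). This was Fzd4, a Frizzled receptor, with 33.6, 36.3 and 28.6 CPM in control replicates 1, 2 and 3 and 48.6, 52.3 and 36.8 CPM in the Erbb2 replicates. Each Erbb2 library was above each control library, and the log2 fold change with the block was 0.47 (SE 0.10, adjusted p = 0.0188 by edgeR). It missed the threshold without pair 1 or pair 2 (edgeR, adjusted p = 0.122 and 0.161). Lrp5, the Frizzled co-receptor, and Ryk had the highest levels, 43.4 and 22.5 CPM per kilobase, and were not called.

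Neither the 14 genes of the destruction complex and its transducers nor the 12 tested nuclear cofactors held a gene that was called. Their median log2 fold changes with the block were 0.02 and 0.04. Ctnnb1, which encodes beta-catenin, stood at 223 CPM per kilobase and Gsk3a, a kinase that marks it for destruction, at 45.0. The corepressor gene Ctbp1 stood at 24.1 and Bcl9l, a coactivator of beta-catenin, at 19.2 CPM per kilobase. Of 16 secreted and surface antagonists 5 were tested and none was called, with Notum, which removes the lipid of Wnt proteins, and Kremen1 the highest at 4.50 and 4.47 CPM per kilobase.

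Of 20 other Wnt target genes 17 were tested, and with the block 3 rose and 1 fell. That is 23.5% beside 3.09% of all genes tested, and as above nothing is read from the excess. The target genes that rose were Ccnd1, Myc and Lbh. Ccnd1, which encodes cyclin D1, was the most highly expressed gene of the list at 152 CPM per kilobase, ahead of Zfp703 at 93.1. It stood at 600, 441 and 730 CPM in control replicates 1, 2 and 3 and at 710, 625 and 1200 CPM in the Erbb2 replicates, and its log2 fold change was 0.49 (SE 0.09, adjusted p = 0.0135 by edgeR). The Erbb2 library was higher in each pair while the groups overlapped. Myc, the growth-promoting transcription factor gene, was at 177, 113 and 307 CPM against 221, 151 and 435 CPM (0.42, SE 0.08, adjusted p = 0.0124). Lbh was at 17.1, 14.8 and 23.3 CPM against 22.0, 30.3 and 30.6 CPM (0.58, SE 0.14, adjusted p = 0.0474). All 3 missed the threshold with pair 2 left out (edgeR, adjusted p = 0.120, 0.127 and 0.355), and Lbh also without pair 1 (0.0736). In the fit without the block, Ccnd1 moved to 0.18 and Myc to -0.10 when Erbb2 replicate 3 was left out. Both Ccnd1 and Myc are known to respond to growth factor receptors as well as to Wnt, and the part of either in these values was not tested.

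The gene that fell was Smoc2, which encodes a secreted matrix protein and is part of the Lgr5 stem cell signature of the intestine. It stood at 6.07, 2.93 and 15.6 CPM in control replicates 1, 2 and 3 and at 1.96, 1.53 and 5.16 CPM in the Erbb2 replicates. The Erbb2 library was the lower one in every pair, and replicate 3 was the highest of each group. The log2 fold change with the block was -1.50 (SE 0.22, adjusted p = 0.00414 by edgeR), and without pair 1, 2 or 3 adjusted p was 0.0242, 0.00834 and 0.00208. Of the 7 genes called with the block it was the only one that passed with each pair left out. Without the block it was not called (-1.49, edgeR, adjusted p = 0.9997), and that value moved to -0.62 without control replicate 3.

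Of 16 genes tied to gastric stem cells or the proliferating isthmus of the gland 15 were tested, and 2 fell with the block. That is 13.3% beside 3.09% of all genes tested, from which nothing is read either. Cckbr was at 0 counts in every library. Sox2, a transcription factor gene of gastric stem cells, stood at 60.2, 82.6 and 41.5 CPM in control replicates 1, 2 and 3 and at 47.5, 57.7 and 27.8 CPM in the Erbb2 replicates (log2 fold change -0.48, SE 0.09, adjusted p = 0.0144 by edgeR). It was lower in the Erbb2 library of each pair, and missed the threshold without pair 2 (edgeR, adjusted p = 0.163). Ccnb2, which encodes the mitotic cyclin B2, stood at 22.9, 18.4 and 54.3 CPM against 16.0, 13.3 and 36.3 CPM (-0.53, SE 0.11, adjusted p = 0.0203 by edgeR), and missed it without pair 1 or pair 2 (0.0915 and 0.101). Without the block and control replicate 3, Ccnb2 stood at 0.09. Aqp5 and Prom1 had the highest levels of the list, 305 and 145 CPM per kilobase, and were not called. The median log2 fold change of the 15 was -0.17 with the block, beside -0.01 over all genes tested.

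**Figure D5:**
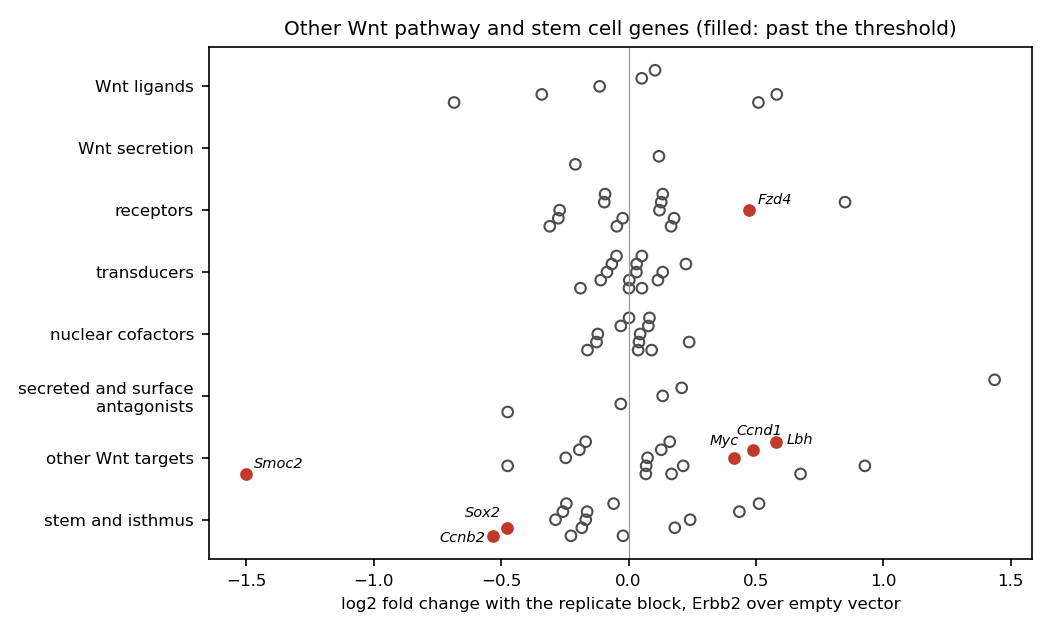
Log2 fold change with the replicate block, Erbb2 over control (x axis), of the 86 tested genes of the other Wnt pathway and stem cell lists (y axis; points are shifted vertically to keep them apart). Filled red points are the 7 genes past the adjusted threshold in edgeR, 4 above 0 and 3 below, with Smoc2 at -1.50 the farthest from 0 among them.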

How the data were processed

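The authors deposited whole-number read counts per Ensembl gene, 1 table for each of the 6 libraries of polyadenylated RNA. The submitters' processing notes name STAR, featureCounts and GRCm39. Tool versions, gene annotation and strandedness are not stated in what was used here. Group and replicate number were read from each sample's title. Symbols matched 25424 of 25528 IDs, and no IDs without a symbol were among the genes described.

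The counts went into edgeR 4.0.16 (R 4.3.3). Genes passing filterByExpr (minimum count 10) were scaled by TMM, the trimmed mean of M values, and tested with the two-sided robust quasi-likelihood F test, adjusted by Benjamini-Hochberg over all genes, with a threshold of 0.05. SE is the size of the log2 fold change over the square root of F. Exon length per gene was taken over all its transcripts in GENCODE M21, an annotation of the earlier assembly GRCm38. The only coordinates printed are those of the promoter windows, which are on GRCm38.p6. Same-numbered libraries had deviations that correlated across genes (0.333, 0.660 and 0.707), each best with its own number; the labels do not say what the number stands for. Libraries of a group differed beyond sampling noise (chi-square per degree of freedom from 33.5 to 125).

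The genes and all lists were chosen with earlier results of these data known. Pathway genes were named if called in a fit without or with the block, or if among the 2 highest of their list per length. Cckbr, Tcf7l2, Tcf7l1, the marker genes named beyond those at 0 and the arrangement by replicate number were picked after values had been seen. Alternatives were 2 other scalings, DESeq2 1.42.0, voom in limma 3.58.1, other filters, the replicate block and libraries left out.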

Additional observations from a re-analysis of the deposited data

How the results depend on the processing

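The replicate block, which pairs libraries by number, moved the number of genes called from 0 to 389 (417 with limma voom; 213, 145 and 1089 with pair 1, 2 or 3 left out), and DESeq2 without it called 34. With single libraries left out the count was 0 to 1. Of the 9 Wnt target and stem cell genes 0 were called in every setting but the block without pair 3, which called 2, Znrf3 (-0.38) and Tcf7 (0.50). The pathway lists had 0 called without the block (0 to 0 with single libraries left out), 7 with it, 7 with the block in voom, and 4, 2 and 16 without pair 1, 2 or 3. With pair 2 left out 5 in place of 8 of the 9 genes differed between numbers; 1850 in place of 3647 of all genes did, and 2045 without pair 3. The cause of these shifts was not tested.

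Signs of log2 fold changes that were not called turned with single libraries. With 1 library left out they ran from -0.0001 to 0.14 for Lgr4, -0.60 to 0.38 for Lgr5, -0.46 to 0.51 for Axin2, -0.24 to 0.11 for Rnf43, -0.52 to 0.63 for Tnfrsf19, -0.84 to 0.46 for Ascl2 and -0.22 to 0.93 for Tcf7. With the block and without pair 3, Lgr5 was at 0.11, Axin2 at 0.19 and Tnfrsf19 at 0.28. Axin2 was at 0.047 with the block without pair 1 and at 0.022 with voom. Nkd1 (-1.38 to -0.15) and Znrf3 (-0.37 to -0.08) stayed below 0 with each library left out. Depth limited Nkd1 and Lef1 most, with as few as 14 and 0 counts in a library.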
